A study of Mus musculus with 4 samples.

Results

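The transcripts described are those of untreated hippocampal neurons that carried a control lentiviral vector, 1 of the 4 libraries of the series. Neurons were taken from the hippocampus of newborn (P0) pups of CD1, an outbred mouse stock, and grown in Neurobasal medium with B27 supplement. On day 4 in vitro (DIV4) they received a control virus made with pLKO.1, a lentiviral backbone for hairpin expression, and on DIV11 they were collected without drug. Whether pups were pooled is not given in the sources used here. The other libraries came from cultures with a hairpin against the histone demethylase gene Kdm6b, from cultures whose synaptic activity was raised by bicuculline and 4-aminopyridine, or from both together, and are not used here. Polyadenylated RNA was made into libraries with the TruSeq kit of Illumina. The table gives FPKM, the fragments per kilobase of transcript scaled to the number of mapped fragments. This scaling lets genes of unlike length be set beside each other where the annotated transcript lengths match the transcripts made. The annotation is not given, so that match could not be checked. Rows were summed per gene symbol, symbols with a failed estimate and small RNA symbols (Mir, Snora, Snord) were dropped, and 21773 of 22492 symbols were kept.

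There was 1 library and no replicate, so nothing was tested and no spread between cultures is known. The range in parentheses after a level is the pair of lower and upper bounds that the authors deposited with it, which covers read counting and read assignment in this library alone. It does not cover a mismatch between annotated and made transcripts, a limit that holds for every order, ratio and share of genes below. Where the ranges of genes next to each other in an order overlapped, their levels were not separated. The total count of reads is unknown from FPKM. Because the RNA came from the whole dish, fewer cells of a type and less RNA per cell cannot be told apart.

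A dissociated hippocampal culture holds pyramidal and granule neurons, which release glutamate, a smaller set of GABA-releasing interneurons, and glia that divide and mature alongside them. Neurons of this age extend axons and dendrites, form synapses and fire spontaneously, and their excitability is set by the receptors and ion channels they make. Firing and calcium entry switch on immediate-early genes such as Fos within minutes, so the level of these genes without a drug shows the background from which a stimulus starts.

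Of the 21773 genes, 13054 (60.0%) had an FPKM of at least 1, the level called expressed below. Every count of expressed list members is to be read beside that 60.0%. An FPKM of at least 10 was reached by 7495 genes (34.4%) and one of at least 100 by 872 genes (4.00%). Another 5136 genes had a level above 0 and below 1, and 3583 were listed at 0. The median was 3.42 over all genes and 12.8 over the expressed ones. The 10 highest genes held 5.42% of the summed FPKM and the 100 highest held 19.6%, while 805 genes together reached 50.0% of it. Precision followed level: the median distance from a level to its upper bound was 11.6% for genes between FPKM 1 and 5 and 4.26% above that.

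The very top of the order was shared by iron and metal binding proteins, secreted glial proteins and the cytoskeleton. Fth1, the heavy chain of the iron store ferritin (mm9 chr19:10057193-10059582), was highest at FPKM 3514 (3493 to 3535). Cst3, a secreted inhibitor of cysteine proteases abundant in glia, followed at 3250.3 (3228 to 3273), and Apoe, the main lipid carrier made by astrocytes (mm9 chr7:20281593-20284515), at 2873 (2858 to 2888). The 3 expressed metallothioneins, small proteins that bind zinc and copper, all stood among the 11 highest genes, with Mt1 at FPKM 2323, Mt3, the neural form, at 1998 and Mt2 at 1907. Tmsb4x, which holds actin monomers, reached 2680.3, the acyl-CoA binding protein gene Dbi 2563, the prolyl isomerase gene Ppia 2123, and the neuropeptide-processing carboxypeptidase gene Cpe 2016. Cytoskeletal genes in the first 25 were Tuba1a at 2061, Actg1 at 1221, Tubb2a at 1177 and Cfl1, an actin-severing factor, at 912. The intermediate filament genes of astrocytes were there too, Vim at FPKM 1543 and Gfap at 1514.

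The rest of the 25 highest genes serve protein synthesis and folding, calcium signalling and secretion. The translation factor gene Eef1a1 stood at FPKM 1737, the ribosomal protein genes Rplp1 and Rpl41 at 1087 and 964, and the chaperone gene Hspa8 at 1228. Calm2 and Calm3, which encode the same calmodulin protein, had FPKM 1008 (999 to 1017) and 993 (986 to 999), ranges that overlapped. Sparc, a matrix protein of astrocytes, had 1145, Nnat, an imprinted gene of developing neurons, 1002, and the selenoprotein gene Sepw1 929.6. Several of these genes (Fth1, Ppia, Eef1a1, the tubulins, calmodulins and metallothioneins) have close copies or processed pseudogenes, so their levels depend on how shared reads were assigned. All 77 ribosomal protein genes were expressed, 69 of them at FPKM of at least 100, with a median of 302 and 5.23% of the summed FPKM. Of the 20 listed subunits of the mitochondrial respiratory chain and ATP synthase, all were expressed with a median FPKM of 224, from Atp5b at 686, Ndufa4 at 655, Cox4i1 at 608 and Atp5g3 at 545 down to Ndufv1 at 84.01 and Ndufs1 at 75.1.

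**Figure D1:**
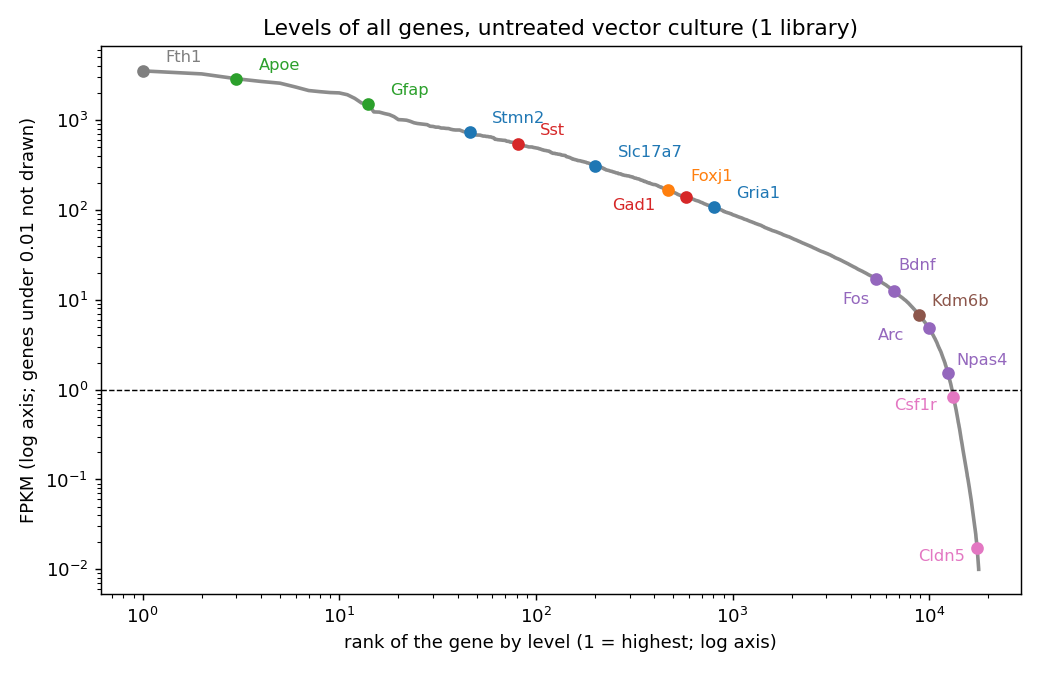
Level of each gene (vertical log axis, FPKM) against its rank by level (horizontal log axis, 1 is highest) in the untreated vector library; coloured points mark genes named in the text and the dashed line marks FPKM 1. Astrocyte genes Apoe (rank 3) and Gfap (rank 14) stand ahead of the neuronal genes Stmn2 (rank 46), Sst (rank 81) and Slc17a7 (rank 201), activity genes such as Fos lie in the middle, and the endothelial gene Cldn5 lies near the bottom.

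Set against the label of a neuronal culture, all 18 pan-neuronal genes kept were expressed, with a median FPKM of 164, and 10 of them reached 100. Stmn2, which keeps growing microtubules dynamic, led at FPKM 731 (725 to 737). Uchl1, an abundant neuronal deubiquitinase, stood at 679 (671 to 687), and Gap43, a protein of growing axons, at 501 (495 to 507). The membrane fusion gene Snap25 had FPKM 452 and Tubb3, the neuronal beta-tubulin, 389. Nefh, the heavy neurofilament subunit of mature axons, was near the foot of the list at 19.6 (18.9 to 20.2). The light subunit gene Nefl was 13.2 times as high as Nefh (12.6 to 13.8 from opposite bounds). Elavl4, an RNA-binding protein gene of neurons, was the lowest at FPKM 17.8. Dcx, the doublecortin gene of young migrating neurons, had 22.96, and Rbfox3, which encodes the NeuN antigen, had 42.8. Map2, which encodes a dendritic microtubule protein, was not among the rows.

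Genes of forebrain glutamatergic neurons were nearly all present: 20 of 21 were expressed, with a median FPKM of 22.6. Nrgn, a calmodulin-binding protein of dendrites, had FPKM 332 (327 to 337). Slc17a7, which encodes the vesicular glutamate transporter of cortex and hippocampus (mm9 chr7:52419291-52431509), had 307 (304 to 309.9). Its relative Slc17a6, used mainly by subcortical neurons, had 6.26 (5.901 to 6.62), so that Slc17a7 was 49.0 times as high (45.9 to 52.5). The kinase gene Camk2a stood at 219.8 and the secreted protein gene Nell2 at 201. Transcription factors of cortical and hippocampal neurons followed, with Neurod6 at FPKM 87.2, Mef2c at 54.8, Neurod2 at 22.6 and Tbr1 at 6.85. The lowest were Slc17a8, a transporter of a few interneuron and brainstem types, at 1.33 and the adhesion gene Ntng1 at 0.0922.

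Markers of the hippocampal fields covered a wide range of levels. For dentate granule cells 8 of 12 genes were expressed, a share near the 60.0% over all genes, with C1ql3, a synaptic organiser, at FPKM 48.7, Calb1 (calbindin) at 28.5, Stxbp6 at 19.1, Npnt at 11.7 and Prox1, the transcription factor that specifies granule cells, at 7.404 (7.01 to 7.802). Calb1 and Prox1 are also members of the interneuron list below. The mature granule cell gene Dsp was at 0.7101, and Trpc6 and Lct were at 0.489 and 0.0282. For CA1, 9 of 9 genes were expressed, from Nov at FPKM 73.1, Mpped1 at 40.6, Wfs1 at 23.05 and Man1a at 18.5 to Fibcd1 at 5.42 and Gpr161 at 4.196. For CA2, 7 of 8 were, with Pcp4, a calmodulin regulator, at 170.3, Ptpn5 at 36.1, Necab2 at 30.6 and Cacng5 at 10.2, whereas Amigo2 had 3.298, Ntf3 2.98 and Map3k15 0.633. For CA3 and hilus, 13 of 15 were expressed, led by Nnat and by Ap2s1 at 261, a clathrin adaptor subunit gene that most cells use. The other members of that list were lower. Calb2, also listed as an interneuron marker, had 57.3, Dkk3 42.7, Cpne4 22.5 and the kainate receptor gene Grik4 10.7. Calcrl and Csf2rb2 stood lowest at 0.407 and 0.252. Only 2 of 7 genes of Cajal-Retzius cells, transient early neurons, were expressed. These were Reln at 16.1, which many interneurons also make, and Trp73 at 1.796 (1.62 to 1.97), while Nhlh2 had 0.681, Cacna2d2 0.119, Ebf3 0.0719 and Lhx5 0.0713.

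Interneuron genes formed a broad list, 47 of 50 expressed, beside 60.0% of all genes, with a median FPKM of 9.10. Sst, which encodes the peptide somatostatin (mm9 chr16:23889667-23890930), was far above the other members at FPKM 539 (528 to 549), rank 81 of all genes, and held 58.2% of the summed level of the listed neuropeptides. The peptide genes Npy and Cck had 162 (156 to 169) and 148 (143 to 153), ranges that did not overlap. Levels of listed genes are those of the whole dish, so the part that interneurons made is not known. Gad1, which makes most cellular GABA (mm9 chr2:70400221-70440069), had 139 (137 to 141), which was 2.54 times (2.46 to 2.62) the level of Gad2 at 54.9 (53.9 to 55.8). The vesicular GABA transporter gene Slc32a1 had 63.9 (62.5 to 65.4), and Slc17a7 was 4.80 times as high (4.65 to 4.96).

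Markers of several interneuron classes were expressed side by side. Calb2 (calretinin) stood at FPKM 57.3, Pvalb (parvalbumin), which marks fast-spiking cells, at 33.1 (31.1 to 35.1), and the cannabinoid receptor gene Cnr1, high on Cck basket cells, at 50.7. Vip, which marks interneurons that target other interneurons, was low at 2.18 (1.81 to 2.55). Among transcription factors, Nr2f1 had 46.97, Lhx6, kept by cells from the medial ganglionic eminence, 15.5 (14.6 to 16.4), and Dlx1 8.87. Nkx2-1, which such cells switch off on leaving the eminence for the cortex and hippocampus, was at 0.478, Crh at 0.528 and Chrna2, of a small oriens interneuron class, at 0.133.

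Of 32 astrocyte genes 30 were expressed, beside 60.0% of all genes. Their median FPKM was 163, close to the 164 of the pan-neuronal list. At FPKM of at least 100 stood 19 of the 32, beside 10 of the 18 pan-neuronal genes and 4.00% of all genes. Apoe, Cpe, Vim, Gfap and Sparc each had an FPKM above 1000, a level that none of the 18 listed pan-neuronal genes reached. Genes outside that list did reach it, such as Nnat at 1002, named above as a gene of developing neurons. Among the astrocyte genes above 1000, Cpe is also strongly made by neurons and Vim by many other cells. Gfap (mm9 chr11:102748650-102758514) had FPKM 1514 (1507 to 1521), 4.16 times as high as the glutamate transporter gene Slc1a3 (4.11 to 4.21). Slc1a3, the transporter of radial glia and young astrocytes, had 364 (361 to 367), which was 2.91 times as high as Slc1a2 at 125 (124 to 126), the main transporter of mature astrocytes (2.87 to 2.96). Clu stood at 830.3, the membrane protein gene Mlc1 at 516, Aldoc at 500.05, the water channel gene Aqp4 at 172 and Aldh1l1 at 35.7. A few astrocyte genes were near or under FPKM 1: the gap junction gene Gjb6 at 1.01 (0.798 to 1.23), the amino acid transporter gene Slc7a10 at 0.947 (0.729 to 1.17), and the Notch target Hes5 at 0.865 (0.604 to 1.13).

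Ependymal and ciliary genes were expressed along with the neuronal and astrocytic ones. Of 12 ependymal and choroid plexus genes 10 were expressed, beside 60.0% of all genes, with a median FPKM of 25.2. Foxj1, the master transcription factor of motile cilia (mm9 chr11:116192018-116196668), had FPKM 166 (164 to 168). In a list of 28 genes of motile cilia, 27 were expressed with a median of 18.8. That list was chosen after its values had been seen, so its count is a description only. Foxj1, Rsph1, Ccdc153 and Tmem212 are in both lists, so the counts are not separate observations. The cilia list included Tppp3 at 167, Fam183b at 106, the radial spoke genes Rsph1 at 82.1 and Rsph4a at 22.7, the tektin gene Tekt1 at 20.3 and, lowest, Spag16 at 1.13 and Spag17 at 0.783. Of genes used more by choroid plexus, Ttr, the thyroxine carrier, had 202 (198 to 206), 1500015O10Rik 301 and Folr1 24.5. Other genes of that epithelium were low, with Otx2 at 1.67, Kcne2 at 0.3105 and Kl at 0.103.

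Of 24 progenitor and proliferation genes 21 were expressed, with a median FPKM of 3.37 beside 3.42 over all genes. Of its 12 cell cycle genes 10 were expressed, 3 of them at FPKM of at least 10. Fabp7, a lipid carrier of radial glia and young astrocytes, led at 661 (651 to 671), and Sox2 had 89.9 and Nes 78.4. Among cell cycle genes, the cyclin gene Ccnd1 was highest at 85.2, whereas Top2a, which untangles DNA, had 2.13, Cdk1 2.09, Aurkb 0.4198 (0.278 to 0.562) and Mki67 0.413 (0.354 to 0.473). Eomes, which marks intermediate neuronal progenitors, was lowest at 0.0487.

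Of 23 oligodendrocyte lineage genes 13 were expressed, a share near the 60.0% over all genes. Cnp at FPKM 54.5 and Olig1 at 48.1 were highest, and the matrix gene Tnr had 8.04. Olig2 had 4.41 (3.9998 to 4.81) and the myelin gene Mbp 4.92 (4.42 to 5.41). The precursor gene Pdgfra was at 0.368 (0.298 to 0.438). Sox10, required in the whole lineage, was at 0.168 (0.0927 to 0.243), and Gpr17, of committed precursors, was lowest at 0.00422.

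Of 24 microglial genes 17 were expressed, beside 60.0% of all genes. Their median FPKM of 2.41 was below the 3.42 over all genes. Lyz2, a lysozyme gene of myeloid cells, had 58.4, Cd14 24.1 and the complement gene C1qa 14.2 (13.1 to 15.4). Aif1, which encodes the microglial protein Iba1, had 4.73 (3.96 to 5.501). The fractalkine receptor gene Cx3cr1 was at 1.08 (0.918 to 1.24) and the growth factor receptor gene Csf1r at 0.825 (0.687 to 0.962). Tmem119 and Siglech, typical of microglia in tissue, were at 0.135 and 0.0192.

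Vascular and blood genes were mostly low, with a median FPKM of 0.220 for endothelial and mural genes and 0.153 for erythroid genes. Of 18 endothelial and mural genes 5 were expressed: the smooth muscle actin gene Acta2 at FPKM 63.6, the thyroid hormone transporter gene Slco1c1 at 28.5, Kdr at 3.41, Pdgfrb at 2.44 and Vtn at 1.46. The endothelial genes Pecam1 and Cldn5 were at 0.264 and 0.0173, and Tek and Tie1 at 0.0378 and 0.0172. Of 13 fibroblast and meningeal genes 11 were expressed, beside 60.0% of all genes, with a median FPKM of 4.36. Igfbp2 at 701, which astrocytes make as well, and Fn1 at 21.9 were highest. The next were the matrix gene Dcn at 8.75 and Col6a1 at 6.92, while the fibrillar collagen gene Col1a1 had 4.502 (4.21 to 4.79), and Slc6a13 and Dpt 0.0756 and 0.0587. Of 8 erythroid genes only the globin gene Hba-a1 was expressed, at 3.85 (2.49 to 5.21). Its copy Hba-a2 and the beta-globin gene Hbb-b2 had the lowest levels in that list, a pair for which reads shared with near-identical copies cannot be placed with certainty.

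Genes that mark neurons of other brain regions were mostly low. Of 31 such genes 10 were expressed, and their median FPKM of 0.182 was below the median of 3.42 over all genes. The highest were striatal genes that cortical and hippocampal neurons also use in part, such as Pde10a at 7.98 and Ppp1r1b at 7.84, followed by the histidine decarboxylase gene Hdc at 7.59 (7.05 to 8.14). Genes for making or carrying dopamine, serotonin, acetylcholine and glycine were near the floor: Th was at 0.2302 (0.119 to 0.342), Slc6a4 at 0.0413, Chat at 0.00807, and Slc6a5 was listed at 0.

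**Figure D2:**
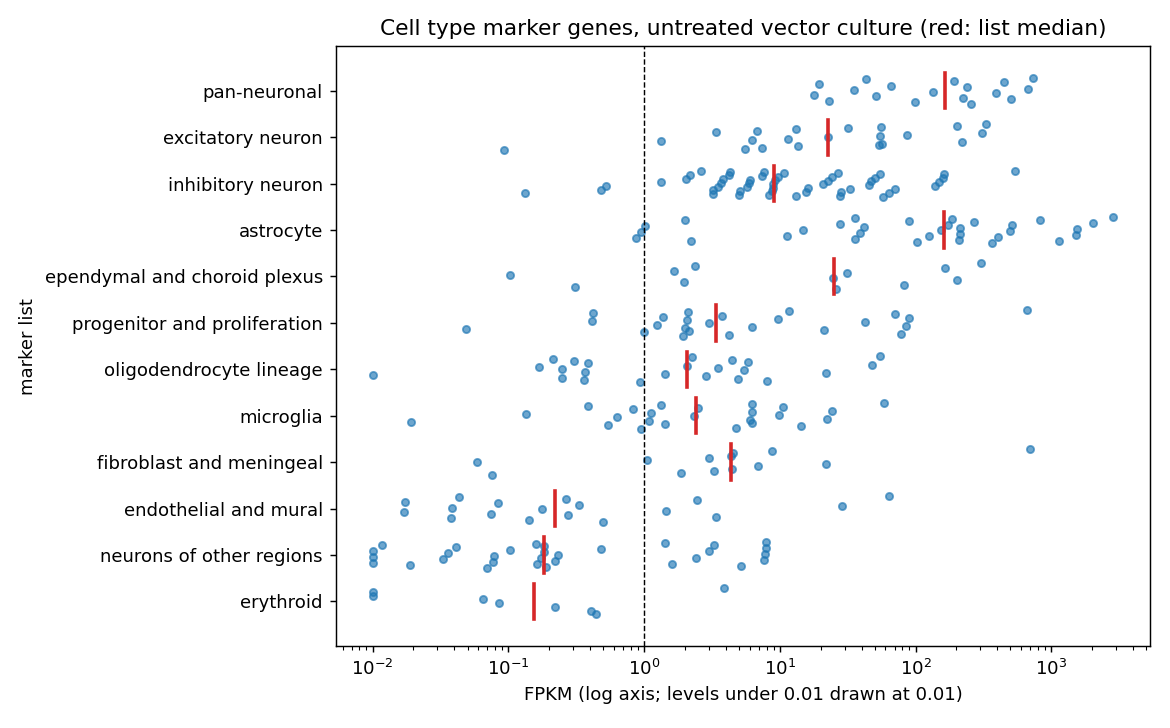
Each point is the level of a marker gene (horizontal log axis, FPKM) in the untreated vector library, in rows by cell type list, with the list median as a red bar and FPKM 1 as a dashed line. Pan-neuronal and astrocyte medians lie at 164 and 163, those of excitatory and inhibitory neurons at 22.6 and 9.10, and those of endothelial, erythroid and other-region lists under 1.

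Synaptic genes were expressed almost without exception, 33 of 34 presynaptic and 38 of 38 postsynaptic genes, with median FPKM of 64.3 and 42.2. Vamp2 and Snap25, which pair in the complex that fuses vesicles, had 456 (451 to 460.1) and 452 (448 to 456), ranges that overlapped. The vesicle protein gene Syp had 425. Vamp2 was 29.4 times as high as Vamp1 (27.7 to 31.3), and Syn2 was 1.42 times as high as Syn1 (1.38 to 1.47). The syntaxin gene Stx1a had 71.4 (69.6 to 73.1). Genes of the active zone were lower, with Unc13a at 39.9, Bsn at 19.7, Rims2 at 6.65 and Rims1 at 0.852 (0.651 to 1.05). The calcium sensor gene Syt2, of fast hindbrain and interneuron synapses, was at 3.02 beside Syt1 at 225.

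On the postsynaptic side the calmodulin genes Calm2 and Calm3 and the dendritic gene Nrgn were among the highest. Ppp3ca, the catalytic subunit of the phosphatase calcineurin, had 232. Camk2a exceeded Camk2b only slightly, 219.8 (218 to 222) against 201 (199 to 203), a ratio of 1.09 (1.07 to 1.12). The scaffold gene Dlg4, which encodes PSD-95, had 159 (157 to 162) and was 4.38 times as high as Dlg3, the gene of SAP102 (4.17 to 4.62). Shank3 had 36.9, Homer1 21.99 and the adhesion gene Nlgn2 of inhibitory synapses 58.1. Homer2 and Lrrtm3 were lowest at 5.18 and 2.82.

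Among AMPA receptor genes, which carry fast excitatory currents, all 22 were expressed. Gria1 (mm9 chr11:56825193-57143746) had FPKM 107 (106 to 109), Gria2, whose edited subunit limits calcium entry, 86.3 (84.9 to 87.7), Gria3 33.5 (32.7 to 34.2) and Gria4 29.9 (28.7 to 31.1). None of these ranges overlapped, and Gria1 was 1.245 times as high as Gria2 (1.21 to 1.29). Gria1 held 41.8% of the summed subunit level and Gria2 33.6%. Of the auxiliary and trafficking genes, Cnih2, a cornichon that slows channel closing, had 254, the disassembly ATPase gene Nsf, used by all membrane fusion, 204, and the TARP genes Cacng7 and Cacng8 76.4 and 45.8. Cacng2, the gene of stargazin, had 15.5, and Gsg1l and Grip2 were lowest at 3.39 and 2.63.

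NMDA receptor genes were uneven. Grin1, the obligatory subunit gene, had FPKM 101 (99.4 to 103) and held 84.2% of the summed level of the 7 genes. Its partners were all at about FPKM 5 or under: Grin3a at 5.097 (4.73 to 5.47), Grin2b at 4.598 (4.37 to 4.83), Grin2d at 4.53 (4.23 to 4.84) and Grin2a at 4.1005 (3.82 to 4.38). Grin2b, the partner of young synapses, and Grin2a, which rises with maturation, were not separated, with a ratio of 1.12 (0.996 to 1.26). Grin2c and Grin3b were not called expressed, at 0.512 and 0.137.

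Kainate and delta receptor genes were all expressed, 9 of 9. Grik5 was highest at FPKM 50.6 (49.5 to 51.6), followed by the auxiliary genes Neto1 and Neto2 at 24.9 and 20.9 and by Grid1 at 15.02. Grik1 and Grik2 had overlapping ranges, 13.7 (12.9 to 14.5) and 13.6 (13.1 to 14.2), and Grik3 was the lowest of the kainate receptor genes at 7.31. Of 8 metabotropic receptor genes 7 were expressed, beside 60.0% of all genes. Grm5 at 33.98 (33.3 to 34.7) and Grm7 at 16.3 (15.7 to 16.9) were well above Grm2 at 5.31, Grm4 at 3.48, Grm3 at 2.35 and Grm8 at 1.37. Grm6, a gene of retinal bipolar cells, was at 0.00509.

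Of 19 GABA-A receptor genes, whose products form the chloride channels of fast inhibition, 13 were expressed, beside 60.0% of all genes. Gabra2 was the highest alpha gene at FPKM 92.1 (90.2 to 93.96), and Gabra5, of extrasynaptic receptors in hippocampus, came next at 67.1 (65.6 to 68.6). Gabra2 was 1.37 times as high as Gabra5 (1.31 to 1.43). Of beta genes, Gabrb2 had 33.96 (33.3 to 34.6) and Gabrb1 25.002 (23.9 to 26.1). Gabrd, which marks tonic receptors of granule cells, had 5.13. Gabra6, of cerebellar granule cells, was at 0.0188, Gabrr2 was at 0.0135 and Gabrr3 was listed at 0.

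All 9 genes of the inhibitory scaffold and of chloride transport were expressed. Slc12a5, the neuronal chloride exporter gene KCC2, had FPKM 55.5 (54.6 to 56.4), which was 5.75 times (5.45 to 6.07) the level of the importer gene Slc12a2 at 9.66 (9.301 to 10.02). Nlgn2 stood at 58.1, the chloride-proton exchanger gene Clcn3 at 56.9, the receptor-trafficking gene Clptm1 at 52.01, the scaffold gene Gphn, of gephyrin, at 31.7 and the chloride channel gene Clcn2 at 10.6. For slow inhibition, the GABA-B subunit genes Gabbr1 and Gabbr2 had 98.9 (97.5 to 100.3) and 48.9 (47.8 to 49.9), and their auxiliary gene Kctd12 had 43.5. Glycine receptor genes were split: Glrb had 47.4 and the early alpha gene Glra2 13.7 (13.04 to 14.4), whereas Glra1 and Glra4 were at 0.0524 and 0.0523.

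**Figure D3:**
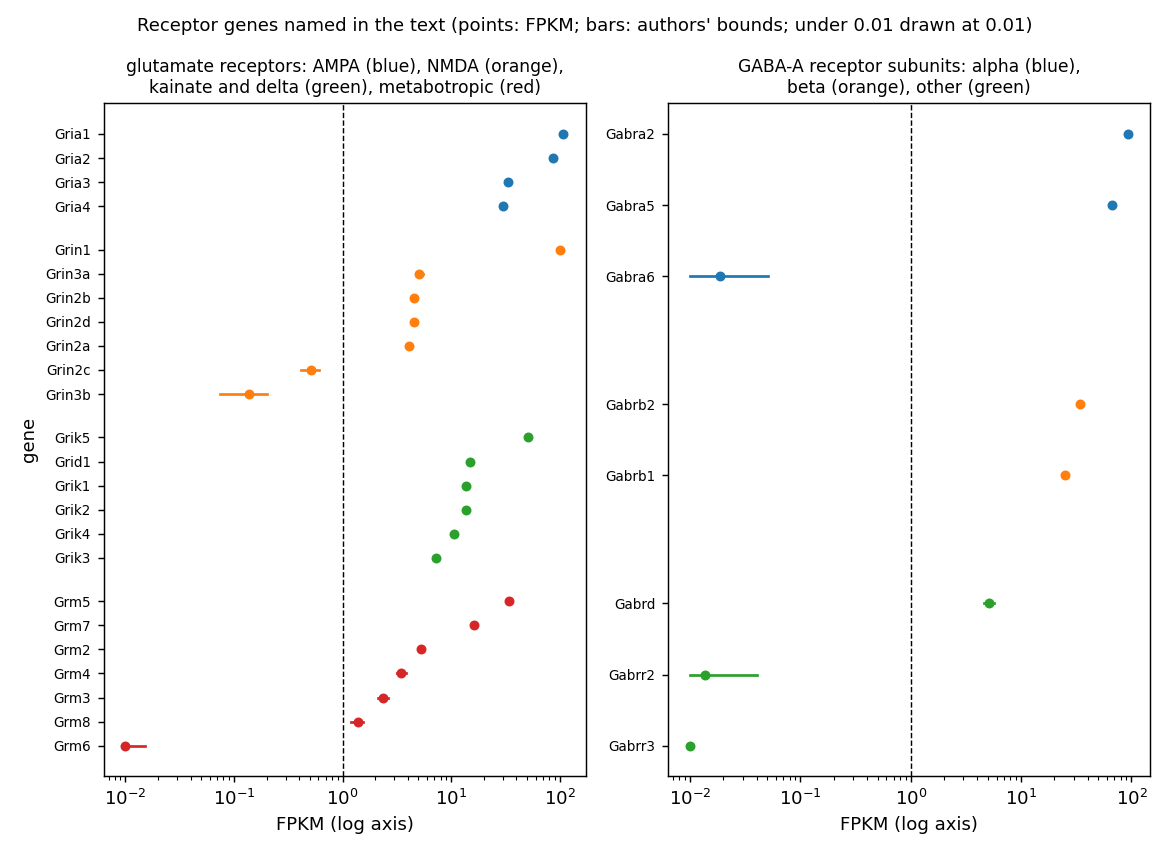
Levels of the glutamate receptor genes (left) and GABA-A receptor genes (right) named in the text on a horizontal log axis (FPKM), coloured by family, with bars for the authors' lower and upper bounds and FPKM 1 as a dashed line. Grin1 at 101 stands apart from its partners at 5.10 and under, and Gabra2 leads the GABA-A genes at 92.1.

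Receptors for modulators were expressed in shares near the 60.0% over all genes. Of 18 acetylcholine receptor genes 10 were expressed, with the muscarinic gene Chrm1 at FPKM 15.2 (14.6 to 15.7), the nicotinic genes Chrna7 and Chrnb2 at 10.7 (9.97 to 11.4) and 10.5 (10.1 to 10.9), and Chrm3 at 10.2. Chrnb4 was at 0.0643 and Chrna9, of hair cells, was listed at 0. Of 32 monoamine receptor genes 16 were expressed. The highest were the adrenergic gene Adra2a at 13.8 (13.3 to 14.4), the serotonin receptor gene Htr1a at 8.79 (8.37 to 9.203), Adrb1 at 7.51 and Adra1d at 6.97. Dopamine receptor genes were low, with Drd1a at 3.03 and Drd2 at 1.89, and Htr1d was at 0.0233 while Hrh4 was listed at 0.

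Of 30 receptor genes for peptides, purines and cannabinoids 20 were expressed, beside 60.0% of all genes. Adora1, the inhibitory adenosine receptor gene, led at FPKM 63.1 (61.8 to 64.4), then Cnr1 at 50.7 (49.8 to 51.5), the PACAP receptor gene Adcyap1r1 at 21.4 and Sstr1 at 18.4. Receptor genes for somatostatin included Sstr1, Sstr2 at 13.99, Sstr3 at 5.58 and Sstr4 at 3.48, with Sstr5 lowest at 0.00832. For the peptide of Npy, the receptor gene Npy1r had 7.21 and Npy2r 1.93. Among opioid receptor genes, Oprl1 had 13.2, Oprd1 1.24, and Oprm1 and Oprk1 0.0259 and 0.0282. Cckar, at 0.0232, was close to them.

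Of 10 genes for neurotrophins and their receptors 8 were expressed, beside 60.0% of all genes. Ntrk2, the receptor gene for BDNF, had FPKM 335 (333 to 338), a total over its full-length and truncated forms, of which astrocytes make the truncated one. It was 21.5 times as high as Ntrk3 (20.4 to 22.7). The sorting receptor gene Sort1 had 52.3. Bdnf itself had 17.1 (16.2 to 17.98), while Ntf5 was lowest at 0.134.

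Sodium channel genes, which generate the action potential, were expressed in 9 of 15 cases, the same share as the 60.0% over all genes. The auxiliary genes Scn3b and Scn2b had FPKM 47.9 (46.7 to 49.1) and 24.3 (23.6 to 24.97). Of the pore genes, Scn2a1 (now Scn2a), of the axon of young excitatory neurons, was highest at 36.3 (35.7 to 36.9). It was 2.09 times as high as Scn8a, which takes over at mature initial segments (2.01 to 2.18), and 5.36 times as high as the embryonic gene Scn3a (5.09 to 5.65). Scn8a at 17.4 (16.9 to 17.8) and the leak channel gene Nalcn at 16.9 (16.5 to 17.4) had overlapping ranges. Scn1a, which interneurons depend on, had 8.65 (8.35 to 8.95). Scn9a and Scn10a, of sensory neurons, were at 0.131 and 0.0142, and the muscle gene Scn4a was lowest at 0.00659.

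Of 18 calcium channel genes 13 were expressed, beside 60.0% of all genes. The N-type and P/Q-type pore genes of presynaptic terminals led their role, Cacna1b at FPKM 24.2 (23.5 to 24.96) and Cacna1a at 17.7 (17.3 to 18.1). The L-type genes Cacna1c and Cacna1d, whose calcium signals reach the nucleus, had 6.996 and 6.16, and T-type Cacna1h, Cacna1g and Cacna1i 9.57, 5.49 and 3.76. Among beta genes, Cacnb3 and Cacnb1 at 35.1 and 31.8 were above all pore genes, and Cacnb2 was the lowest at 9.34. Among alpha2delta genes Cacna2d3 at 29.02 (28.2 to 29.9) held 97.5% of the summed level, and Cacna2d1 was at 0.334 (0.273 to 0.395). The retinal gene Cacna1f was lowest at 0.0179.

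Of 53 genes of voltage-gated potassium channels 37 were expressed, beside 60.0% of all genes. Auxiliary genes were highest, Dpp6 at FPKM 51.4, Kcnab2 at 43.2 and Kcnip2 at 36.5. The Kv4 genes Kcnd3 and Kcnd2, of the dendritic A-type current, had 19.1 (18.4 to 19.9) and 13.97 (13.4 to 14.5). Among Kv1 genes, of axons, Kcna1 had 17.8 (17.4 to 18.2) and Kcna6 15.2 (14.7 to 15.6), above Kcna2 at 6.01 (5.62 to 6.41). The Kv3 genes, which allow fast firing, lay close together, with Kcnc1 at 16.7, Kcnc2 at 13.8 and Kcnc4 at 13.3. Of the Kv7 genes, Kcnq5 had 14.4 (13.997 to 14.8) and Kcnq3 8.08 (7.58 to 8.59), ranges that did not overlap. Kcna7 was at 0.0192 and Kcne3 was listed at 0.

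Of 39 other potassium channel genes 24 were expressed, a share near that 60.0%. Kcnj10, the inward rectifier with which astrocytes clear potassium, was far above the rest at FPKM 214 (212 to 216). The leak channel genes Kcnk1 and Kcnk2 followed at 50.6 and 26.5, the last with a range that overlapped that of Kcnmb4, a subunit gene of calcium-gated channels, at 25.4. Kcnma1, the pore of those channels, had 10.3 and Kcnn2, of the SK type, 15.8. Kcnk18 was at 0.00744 and Kcnk16 was listed at 0. The 4 pacemaker genes were all expressed, with Hcn2 highest at 21.5 (20.7 to 22.3), Hcn3 next at 10.5 (9.99 to 11.1) and Hcn4 lowest at 4.06 (3.75 to 4.37).

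**Figure D4:**
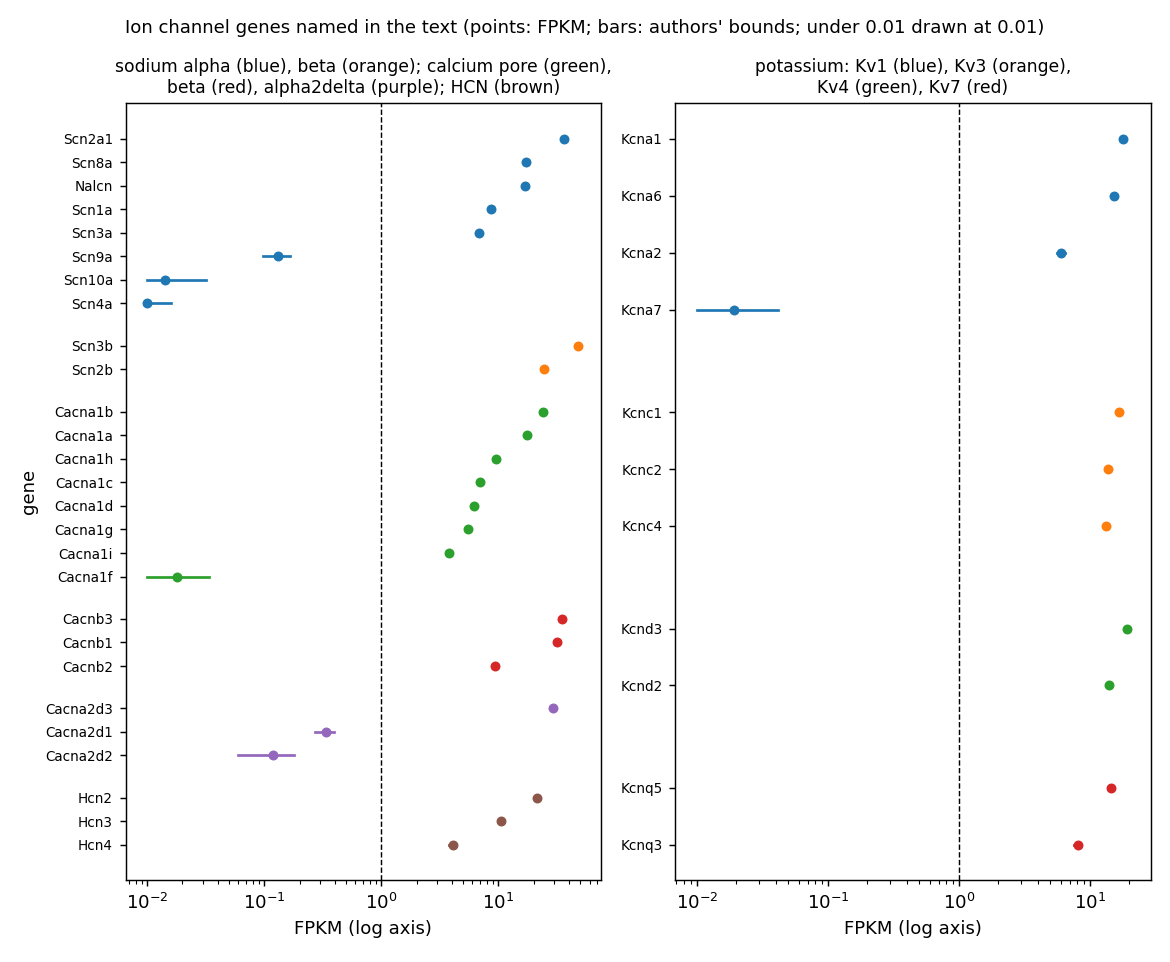
Levels of the sodium, calcium and HCN channel genes (left) and voltage-gated potassium channel genes (right) named in the text on a horizontal log axis (FPKM), coloured by family, with bars for the authors' lower and upper bounds and FPKM 1 as a dashed line. The Kv3 genes drawn lie between 13.3 and 16.7, and among alpha2delta genes only Cacna2d3 lies above FPKM 1.

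Activity-regulated genes were detected without drug, most of them at modest levels. Of 26 genes listed as immediate-early transcription factors 24 were expressed, with a median FPKM of 11.3 beside 3.42 over all genes. The list also counts Nab2, a corepressor gene, and Kdm6b, the histone demethylase gene described below. Within AP-1, the dimer of Fos and Jun proteins, Jund had 80.4 (78.8 to 81.96), Jun 52.7 (51.5 to 53.9) and Junb 23.02 (21.9 to 24.1). Fos (mm9 chr12:86814851-86818219) was at 12.5 (11.8 to 13.3), Fosb at 2.91 (2.65 to 3.17) and Fosl1 at 0.787 (0.557 to 1.02). The 3 Jun genes were all above the Fos-related ones, of which Fosl2 at 17.5 was highest.

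Of the Egr group, Egr3 had FPKM 18.9 (17.7 to 20.002), Egr1 13.8 (13.2 to 14.5), Egr4 5.73 (5.23 to 6.24) and Egr2 1.03 (0.851 to 1.21), and their corepressor gene Nab2 had 22.9. Egr1 and Fos were not separated, with a ratio of 1.102 (0.992 to 1.23). Of the Nr4a receptors, Nr4a3 at 23.8 (22.8 to 24.9) was above Nr4a2 at 7.64 and Nr4a1 at 4.25 (3.85 to 4.64). Npas4, a factor that responds to calcium entry in neurons (mm9 chr19:4984355-4989971), was low at 1.52 (1.32 to 1.72). Only Fosl1 and Crem, at 0.714 (0.479 to 0.948), fell below FPKM 1.

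All 21 immediate-early effector genes were expressed, with a median FPKM of 12.3. Rheb, a GTPase that activates mTOR, had 106, the secreted matrix genes Cyr61 and Ctgf, which astrocytes also make, 77.9 and 63.6, and the synaptic kinase gene Plk2 68.1. Arc, which removes AMPA receptors from synapses, was near the foot of the list at 4.89 (4.51 to 5.27). Trib1 and Ptgs2, the gene of cyclooxygenase 2, were lowest at 4.501 and 1.63.

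Late effector genes covered the widest span of the activity lists, 22 of 23 expressed, beside 60.0% of all genes, with a median FPKM of 9.72. Sst and Npy, listed here as genes induced by activity as well as interneuron markers, were highest, followed by Rgs4, an inhibitor of G protein signalling, at 138 and the granin gene Scg2 at 84.9 (83.2 to 86.7). Vgf, a peptide precursor gene, had 81.8 (80.1 to 83.5), not separated from Scg2. Nptx2, which gathers AMPA receptors on interneurons, had 21.1 (20.2 to 21.9) and Bdnf 17.1 (16.2 to 17.98). Inhba, which encodes the activin A subunit, was low at 2.87 (2.45 to 3.299), Pdyn had 2.01 (1.45 to 2.57), and Serpinb2 was at 0.106 (0.0314 to 0.1804).

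The genes of proteins that carry calcium signals to the nucleus were all expressed, 17 of 17 with a median FPKM of 23.3. The calcineurin genes Ppp3ca and Ppp3cb had 232 and 113, and the kinase gene Mapk3, of ERK1, 103. The nuclear factor gene Mef2c had 54.8 (53.8 to 55.7), while Creb1 at 7.04 (6.73 to 7.35) and its coactivator gene Crebbp at 5.27 (5.03 to 5.52) were the lowest of the list.

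**Figure D5:**
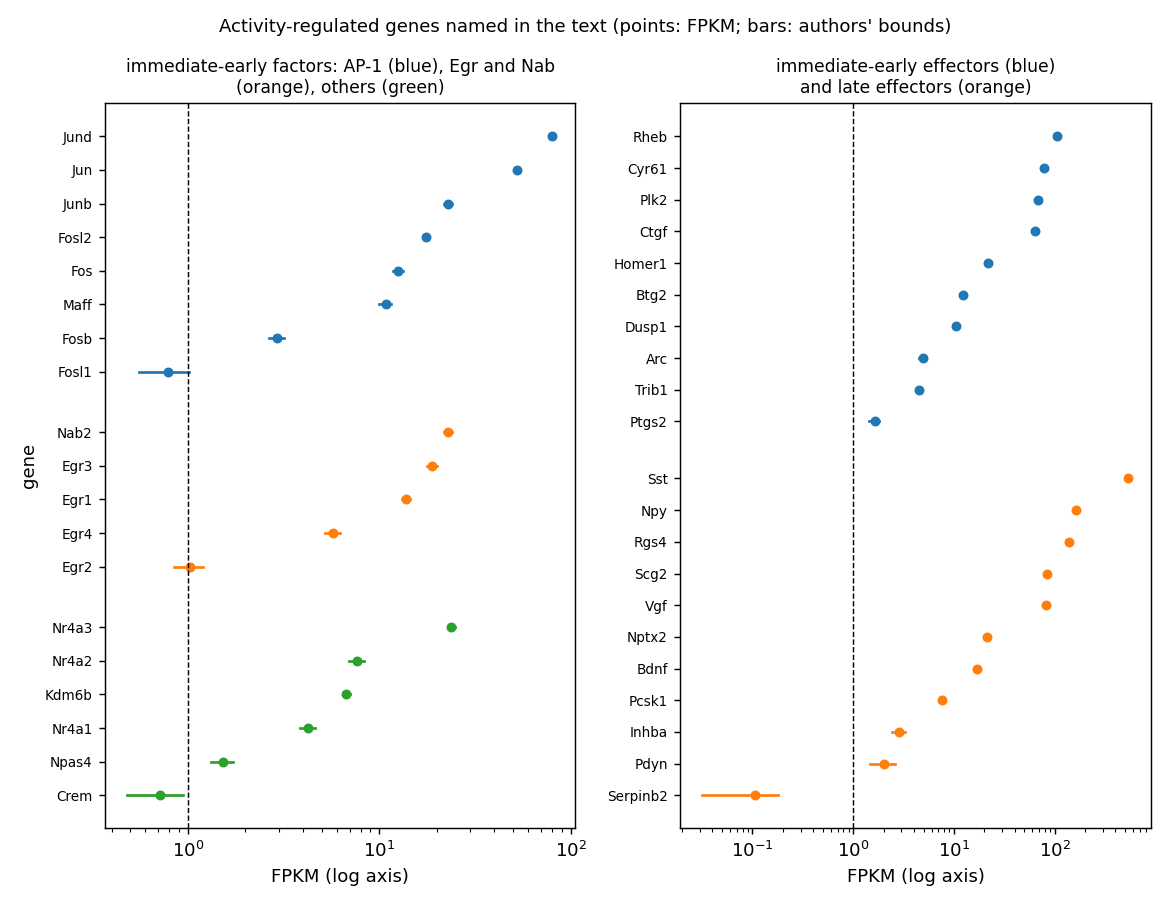
Levels of the immediate-early transcription factor genes (left) and immediate-early and late effector genes (right) named in the text on a horizontal log axis (FPKM), with bars for the authors' lower and upper bounds and FPKM 1 as a dashed line. Jund is highest on the left at 80.4 and Npas4 is low at 1.52, and Sst is highest on the right at 539.

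CREB, the factor encoded by Creb1, binds the cAMP response element TGACGTCA and its shorter core TGACG. The 250 bases before each gene's start, taken from RefSeq promoters of build GRCm38.p6, were searched on both strands. TGACGTCA was in 1.55% of all 32851 windows, in 355 (2.35%) of the 15136 genes of the table that had a window, and in 7 of the 64 activity genes that had a window (10.9%): Btg2, Dusp1, Maff, Pcsk1, Plk2, Scg2 and Sst. TGACG, which every TGACGTCA also contains, was in 17.8% of all windows (23.4% of genes) and in 32 of the 64 activity genes. The TATA motif TATAAA was in 12.4% of windows (13.3% of genes) and in 10 of the 64. The genes with TGACGTCA did not share a level, since they ran from Pcsk1 at FPKM 7.67 to Sst at 539. The 150 bases before the start of 4 genes are shown because they hold high, middle and low resting levels and differ in their matches, with motif matches in capitals, 5′ to 3′ on the strand of the gene, with GRCm38.p6 coordinates.
Sst, chr16:23890845-23890994, minus strand: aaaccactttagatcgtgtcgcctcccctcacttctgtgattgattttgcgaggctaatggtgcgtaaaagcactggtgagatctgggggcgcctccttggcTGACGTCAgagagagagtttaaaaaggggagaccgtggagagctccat
Scg2, chr1:79440027-79440176, minus strand: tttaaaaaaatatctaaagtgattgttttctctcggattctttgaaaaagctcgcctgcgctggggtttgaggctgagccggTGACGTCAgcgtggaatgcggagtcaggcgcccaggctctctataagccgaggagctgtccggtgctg
Fos, chr12:85473740-85473889, plus strand: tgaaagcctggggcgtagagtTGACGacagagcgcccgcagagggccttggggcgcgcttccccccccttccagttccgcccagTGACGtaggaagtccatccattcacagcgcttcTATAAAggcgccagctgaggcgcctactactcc
Npas4, chr19:4989972-4990121, minus strand: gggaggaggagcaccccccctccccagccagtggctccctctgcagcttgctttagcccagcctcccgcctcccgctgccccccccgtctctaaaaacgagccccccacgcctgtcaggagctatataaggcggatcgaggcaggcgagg
Sst, the highest of these at rest, held a full TGACGTCA that began 48 bases before its start, and Scg2 held one 68 bases before. Fos held TATAAA 33 bases before its start and TGACG at 129 and 66 bases. These 150 bases of Npas4 held none of the 3 motifs searched. A match is a description of letters and does not show binding.

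Kdm6b, the gene targeted by the hairpin in other cultures of the series, encodes an enzyme that removes methyl groups from histone H3K27 (mm9 chr11:69212020-69227177). In the untreated vector culture it had FPKM 6.74 (6.44 to 7.04), rank 8876 of 21773, above 59.2% of the genes in level. Among 14 genes of H3K27 methylation, a list chosen after values were seen, 13 were expressed with a median of 7.02. The demethylase gene Kdm6a had 5.63 (5.33 to 5.94), and Uty, on the Y chromosome, had 2.54 (2.33 to 2.75). The methyltransferase genes Ezh1 and Ezh2 had 6.56 (6.19 to 6.93) and 5.199 (4.74 to 5.66), and the range of Kdm6b overlapped that of Ezh1. Their shared partners were higher, Rbbp7 at 105, Suz12 at 13.3 and Eed at 10.7. Phf19 was lowest at 0.6299.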

How the data were processed

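RNA levels of 1 library were described, and no comparison between libraries was made. The authors deposited FPKM per gene with a lower and an upper bound and a status. Build mm9 and the tools Cufflinks 2.0.2, TopHat2 2.0.8b and CASAVA 1.8 are listed, without their roles, in the submitters' processing notes. The gene annotation is not given in the sources used here. Of 22878 rows (22492 symbols), 8 failed rows and 711 small RNA symbols, which held 9.89% of the summed FPKM, were dropped, and 268 rows marked low in data were kept. Rows of the 200 symbols with over 1 row were summed, bounds included. Starts in the file count from 0 and are given here from 1.

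Gene levels, ranks, list counts, list medians and 23 pair ratios were computed with Python 3.11.15 and pandas 2.3.3, and figures were drawn with matplotlib 3.10.9. A ratio's range sets each level's bound against the opposite bound of the other. Summing and dropping were tested on simulated data. Of 881 listed symbols, 868 were kept, 2 had failed (Slc4a4, Per1) and 11 were not among the rows.

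The text names the 25 highest genes, at least the 4 highest and 2 lowest members of most lists, any receptor or channel subunit, the paired genes, and Kdm6b, Fos, Npas4, Arc, Bdnf, Nptx2, Inhba, Egr1, Nr4a1, Tubb3, Snap25, Slc17a7, Gad1, Gfap, Aif1 and Olig2. Other list members are named for their role, after their values were seen. Some genes that this rule covers are not reported here. The members and lists were chosen with earlier results of these data known, and 6 of the 46 lists (motile cilia, H3K27 methylation, cell death, long noncoding RNA, peptides, metallothionein and iron) after their values were seen. Promoter windows came from RefSeq (GRCm38.p6), whose coordinates were kept apart from those of the files. Depth per sample is unknown. Alternatives were other minimum levels, the lower bound in place of the level, the highest row in place of the sum, small RNA symbols kept, short loci or rows low in data left out, and pseudocounts.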

Additional observations from a re-analysis of the deposited data

How the results depend on the processing

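With 1 library nothing could be left out, and depth between cultures cannot be judged. No paired analysis was possible because only 1 library is described and no result comes from a test. At FPKM of at least 2, Cajal-Retzius genes called expressed went from 2 to 1 and monoamine receptor genes from 16 to 10, and the other 38 lists stayed within 1.5 times their count. With small RNA symbols kept, the 100 highest symbols held 24.3% of the summed FPKM in place of 19.6%, and ribosomal protein genes 4.72% in place of 5.23%. The number of genes called expressed was 13919 at a minimum of 0.5, 12008 at 2 and 12737 where the lower bound had to reach 1. No pair ratio turned its direction under the pseudocounts of 0.1 or 1 or with the highest row kept, and 7 of 69 values left the range given by the bounds. All 7 came from pseudocounts.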

Other observations

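The lists in the next sentences were chosen after their values were seen, and they are given as levels in the untreated vector library only. Of 26 genes that regulate cell death 25 had an FPKM of at least 1, with a median of 10.9. Bax, which opens the mitochondrial membrane in apoptosis, had 92.4 (89.02 to 95.9), and its inhibitors Mcl1 and Bcl2l1 had 84.4 (82.9 to 85.9) and 61.3 (59.8 to 62.9). Bcl2, the founding survival gene of the family, stood at 7.705 (7.39 to 8.02). Hrk and Bbc3, which start neuronal apoptosis, had 13.7 and 10.98, and the inhibitor gene Birc3 was lowest at 0.713.

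Of 31 genes for granins, peptide-processing enzymes and neuropeptides 27 were expressed. Beside Cpe and Sst, the chaperone gene Scg5 had FPKM 307 and Scg3 214. The peptide-cleaving convertase genes were lower than the carboxypeptidase gene Cpe, with Pcsk2 at 25.2 (24.5 to 25.9) and Pcsk1 at 7.67 (7.14 to 8.196), while Pcsk1n, which encodes an inhibitor of the latter, had 154. Tac1 had 27.7, Pnoc 22.7 and Gal 0.255, and Galp was listed at 0.

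Of 13 long noncoding RNA genes 12 were expressed. Rian and Meg3, made from the same imprinted maternal cluster, had FPKM 232 (229.8 to 235) and 221 (217 to 224), ranges that did not overlap. Neat1 and Malat1, which reside in the nucleus, had 72.8 (71.3 to 74.2) and 72.3 (71.3 to 73.2), ranges that overlapped, and Kcnq1ot1 was lowest at 0.689. These are levels in polyadenylated RNA, so forms without a poly(A) tail may be missed, and the Neat1 locus listed spans only 3177 bp. The ferritin light chain gene Ftl1 had 735 beside Fth1 at 3514, the transferrin receptor gene Tfrc 35.4, the iron exporter gene Slc40a1 0.649, and Mt4, of squamous epithelium, was listed at 0.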
